A study of Mus musculus with 24 samples.

Results

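The genes described here are 9 markers of intestinal stem cells and targets of Wnt signalling, Lgr5, Olfm4, Smoc2, Axin2, Rnf43, Znrf3, Tnfrsf19, Ephb2 and Ephb3, which were listed by name out of the 39056 genes of the count table, and all 9 were found. Their messenger RNA was followed in the 12 libraries made from live cells of the mouse ileum that lacked CD45, the surface protein of hematopoietic cells, with 3 libraries from each of 4 genotypes. Each level is given in CPM, the counts of a gene scaled to 1000000 counts on all genes of the same library, and as counts per 1000 counts of Epcam, a cell adhesion gene of all intestinal epithelial cells. The 12 libraries made from CD45+ cells of the same genotypes served only for reference.

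All mice were C57BL/6 (C57BL/6 J in the study's methods), were 9.0 to 10.3 weeks old and carried floxed alleles of Il4ra, the receptor chain shared by interleukin-4 and interleukin-13, on both chromosomes. Il4ra f/f mice had these alleles alone, and Il4ra ΔIEC mice also carried the Vil1cre transgene, in which the villin promoter drives Cre recombinase in intestinal epithelial cells. Hoil1+/+ mice had both wild-type copies of Rbck1, the gene of the linear ubiquitin ligase subunit HOIL1, and Hoil1-/- mice were homozygous for the Rbck1tm1Kiwa allele, which still gives a low level of the N-terminal part of the protein. The 4 groups were thus Hoil1+/+Il4ra f/f, Hoil1-/-Il4ra f/f, Hoil1+/+Il4ra ΔIEC and Hoil1-/-Il4ra ΔIEC. Peyer's patches had been removed, and epithelial and lamina propria cells were combined before the sort, so the CD45- cells also included endothelium and stroma.

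Wnt ligands hold beta-catenin stable in cells at the base of the intestinal crypt, where beta-catenin joins TCF factors on target genes and keeps stem cells dividing. R-spondins strengthen this signal through Lgr receptors, and the targets include the pathway's own inhibitors, which close a negative feedback loop. Eph receptors, also targets, set the position of cells along the crypt, and daughter cells lose these transcripts as they move up to the villus and become enterocytes and secretory cells. In a bulk sample, fewer stem cells and less RNA per stem cell cannot be told apart.

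Totals of the CD45- libraries ran from 6028275 to 68345191 counts, and every one of the 9 genes had at least 41 counts in each. Rbck1 ranged from 70.9 to 131 CPM over the 6 Hoil1+/+ libraries, and its highest level in a Hoil1-/- library was 8.71 CPM. Ptprc, the gene of CD45, reached at most 16.3 CPM in CD45- libraries and at least 179.6 CPM in CD45+ libraries. Il4ra counts do not check the Cre deletion, because they include parts of the gene outside the floxed segment and cells in which villin is not expressed. Hoil1-/-Il4ra f/f replicate 3, which the study had left out as an outlier, was kept out of the main tests, which used the other 11 libraries, but its values for the 9 genes are given in CPM throughout. Cell composition differed strongly between libraries of a genotype. The summed level of 8 enterocyte markers, all counted in every library, was 14896, 1498 and 2429 CPM in Hoil1+/+Il4ra f/f, 33011, 23497 and, in the left-out library, 1971 CPM in Hoil1-/-Il4ra f/f, 35507, 35615 and 2022 CPM in Hoil1+/+Il4ra ΔIEC, and 1194, 409 and 16415 CPM in Hoil1-/-Il4ra ΔIEC. The markers of the epithelium as a whole, 10 genes, spanned a narrower range of 1652 to 13386 CPM in sum.

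Per kilobase of annotated exon, Olfm4 was the most abundant of the 9 genes in CD45- cells, with a median of 429 CPM per kb, and its lowest library, at 185 CPM per kb, lay above every value of the other 8 genes. Axin2 followed with a median of 12.1 CPM per kb and Smoc2 with 8.24 CPM per kb, and Axin2 was above Smoc2 in 10 of 12 libraries. Ephb2 and Rnf43 had nearly the same median level, 5.05 and 5.04 CPM per kb, and Ephb2 was the higher in 7 of 12 libraries, so their order was not resolved. Ephb3 came next at 4.01 CPM per kb. Tnfrsf19 at 2.00, Lgr5 at 1.40 and Znrf3 at 1.21 CPM per kb had the lowest medians, with ranges that overlapped from each gene to the next. Tnfrsf19 was above Lgr5 in 7 of 12 libraries, so their order was not resolved either. Between all neighbours below Olfm4 the ranges overlapped.

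For 7 of the 9 genes every CD45- library was above every CD45+ library. The share of all genes for which the fractions do not overlap was not counted. Lgr5 had no count in 8 and Tnfrsf19 none in 10 of the 12 CD45+ libraries, and their highest levels there, 1.94 and 0.478 CPM, were below the lowest in any CD45- library. Median Olfm4 was 168-fold, Smoc2 76.8-fold and Ephb2 67.1-fold higher in CD45- than in CD45+ libraries, against 20.8-fold for Epcam. Ephb3 had no count in 7 CD45+ libraries. The negative feedback genes were less restricted. Axin2 had a median of 66.6 CPM in CD45- and 10.7 CPM in CD45+ libraries without overlap, Rnf43 had medians of 33.1 and 10.5 CPM with overlap, and Znrf3 had a higher median in CD45+ cells, 13.5 CPM, than in CD45- cells, 9.52 CPM. These are descriptions of levels, with no test between the fractions.

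**Figure D1:**
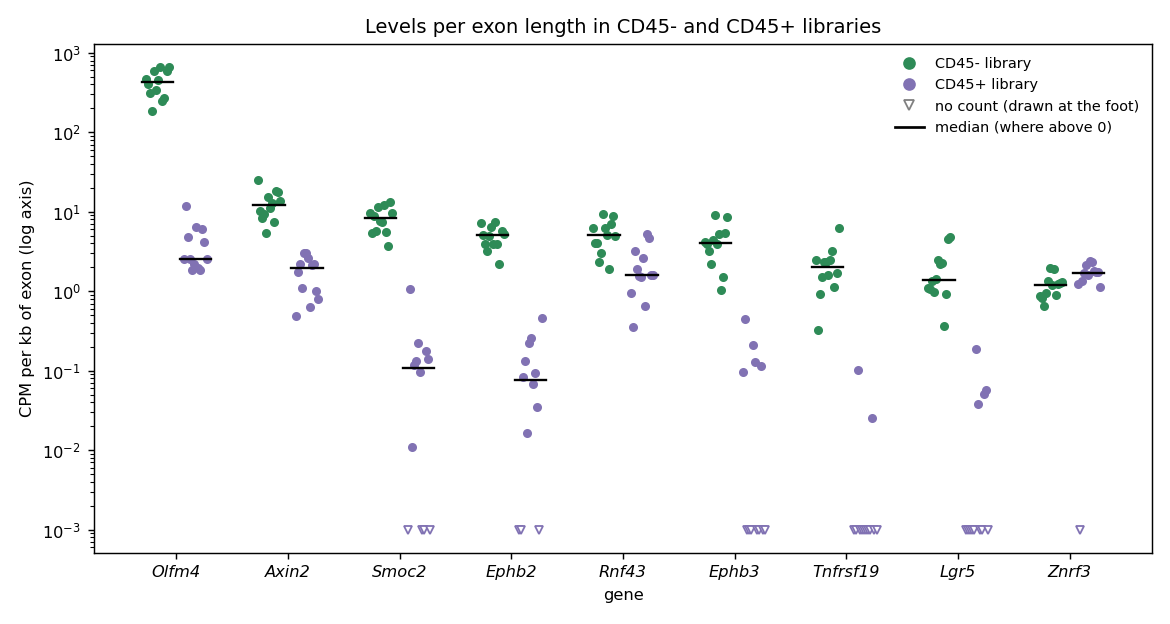
Level of each gene in CPM per kb of exon (log axis) in every CD45- library (green) and CD45+ library (purple), with black lines at the medians above 0 and open triangles at the foot for libraries with no count. Olfm4 stands apart at the top with a CD45- median of 429 CPM per kb, and Znrf3 is the gene whose CD45+ median lies above its CD45- median.

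Lgr5 (chr10:115450311-115587780, minus strand, GRCm38, ENSMUSG00000020140.15) encodes the R-spondin receptor that marks cycling crypt base stem cells. Hoil1+/+Il4ra f/f mice had Lgr5 levels of 25.1, 22.4 and 23.1 CPM, and it was 11.4 and 11.1 CPM in Hoil1-/-Il4ra f/f replicates 1 and 2, but 49.2 CPM in the left-out replicate 3. It was 3.76, 9.53 and 46.8 CPM in Hoil1+/+Il4ra ΔIEC and 13.9, 10.0 and 14.8 CPM in Hoil1-/-Il4ra ΔIEC. Among Il4ra f/f libraries of the main set the Hoil1 groups did not overlap, and the left-out library, the highest of all 12, lay on the other side of the wild-type group. The fitted log2 difference between Hoil1-/- and Hoil1+/+ was -0.80 (SE 0.72, 95% interval -2.40 to 0.79, adjusted p = 0.601 by edgeR's quasi-likelihood test) in Il4ra f/f and became 0.18 (SE 0.73) with all 12 libraries. In Il4ra ΔIEC it was -0.69 (SE 0.64, adjusted p = 0.806) and turned to 0.62 (SE 0.48) without Hoil1+/+Il4ra ΔIEC replicate 3, the library with the most counts.

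Tnfrsf19 (chr14:60963875-61046490, minus strand, GRCm38, ENSMUSG00000060548.12), also called Troy, encodes a receptor of the TNF receptor superfamily that is found on Lgr5+ stem cells. Its level was 11.04, 7.56 and 11.6 CPM in Hoil1+/+Il4ra f/f and 11.8 and 1.53 CPM in Hoil1-/-Il4ra f/f, with 29.3 CPM in the left-out library. In Hoil1+/+Il4ra ΔIEC it was 15.1, 5.32 and 7.96 CPM and in Hoil1-/-Il4ra ΔIEC 4.38, 7.24 and 10.9 CPM. All groups overlapped. The replicates of Hoil1-/-Il4ra f/f held both the lowest and the highest level of the 12 libraries. The fitted log2 difference for Hoil1 in Il4ra f/f, -0.32 (SE 0.84, 95% interval -2.17 to 1.53), moved to -2.45 without Hoil1-/-Il4ra f/f replicate 1 and to 0.52 without replicate 2.

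Olfm4 (chr14:79984081-80023139, plus strand, GRCm38, ENSMUSG00000022026.6) encodes a secreted glycoprotein that is abundant in crypt base cells. It was counted at 1023, 1328 and 1950.2 CPM in Hoil1+/+Il4ra f/f and at 1390.3 and 1212 CPM in Hoil1-/-Il4ra f/f, with 1957 CPM in the left-out library. In Hoil1+/+Il4ra ΔIEC it was 739.5, 788 and 1764 CPM and in Hoil1-/-Il4ra ΔIEC 933, 549 and 1769 CPM. In both ΔIEC groups replicate 3 was about as high as the highest f/f libraries and the other libraries were lower, and all groups overlapped. The fitted log2 difference for Hoil1 was 0.16 (SE 0.50, 95% interval -0.95 to 1.27) in Il4ra f/f and -0.14 (SE 0.45, 95% interval -1.14 to 0.85) in Il4ra ΔIEC.

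Smoc2 (chr17:14279506-14404790, plus strand, GRCm38, ENSMUSG00000023886.9) encodes a secreted calcium-binding matrix protein that is part of the Lgr5+ stem cell signature. It was measured at 53.8, 52.1 and 85.7 CPM in Hoil1+/+Il4ra f/f, at 67.7, 37.2 and, left out, 67.6 CPM in Hoil1-/-Il4ra f/f, at 38.3, 25.6 and 93.0 CPM in Hoil1+/+Il4ra ΔIEC, and at 60.7, 39.8 and 79.3 CPM in Hoil1-/-Il4ra ΔIEC. No pair of groups was separate. Its log2 differences for Hoil1 were the smallest of the stem cell markers, 0.01 (SE 0.47, 95% interval -1.02 to 1.04) in Il4ra f/f and 0.07 (SE 0.42, 95% interval -0.85 to 1.00) in Il4ra ΔIEC.

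**Figure D2:**
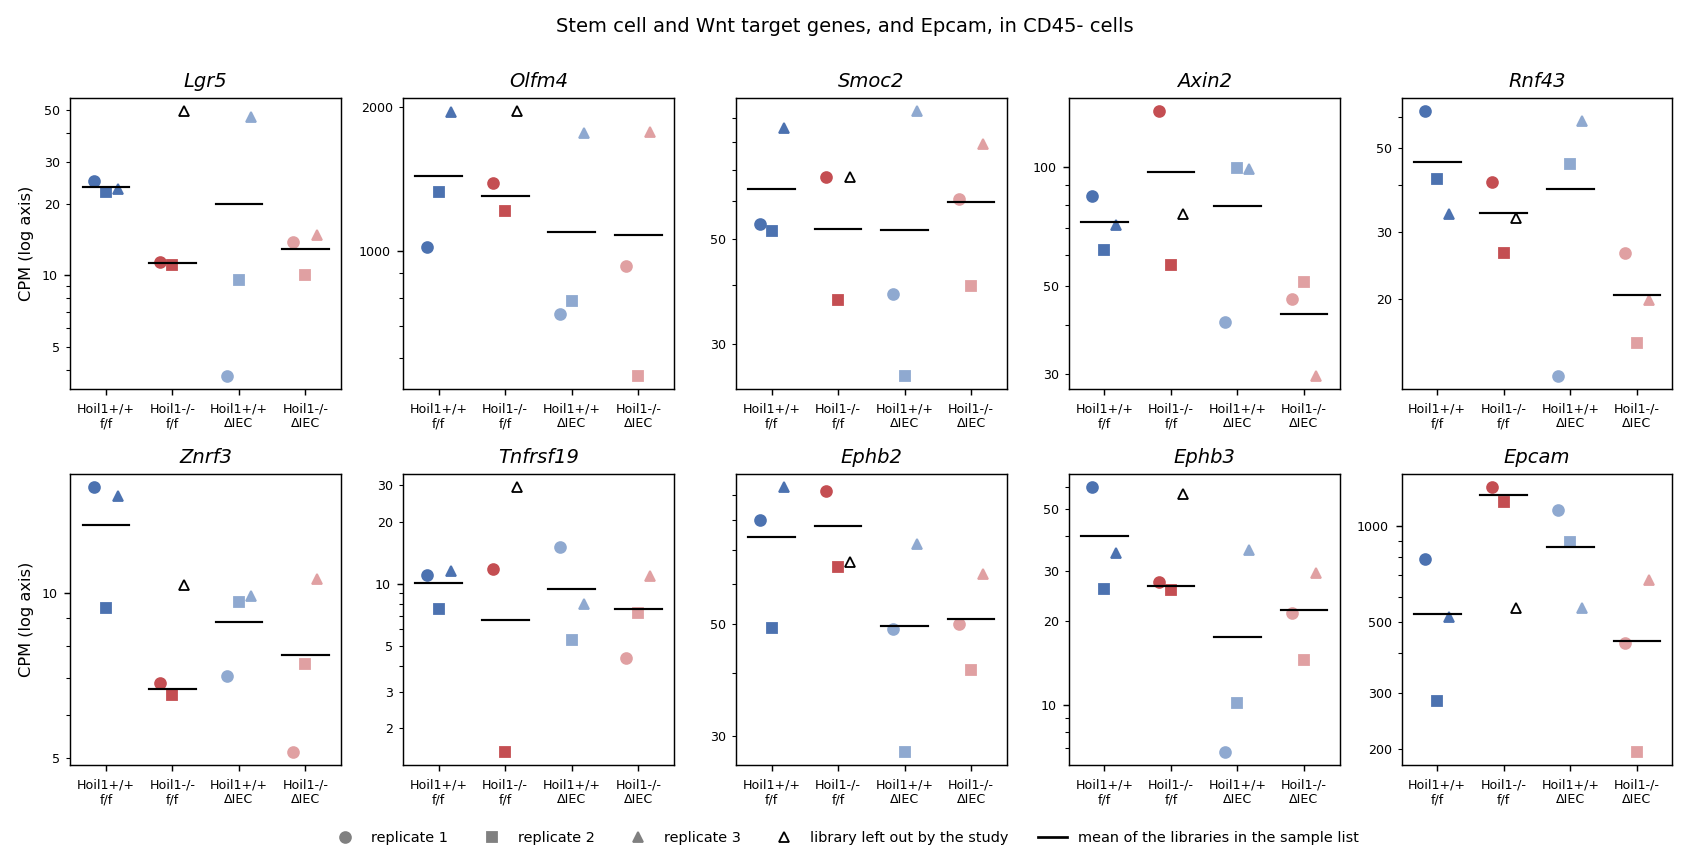
CPM (log axis, a separate scale for each gene) of the 9 genes and Epcam in the 12 CD45- libraries by genotype, with point shapes for replicates, an open triangle for the library the study left out, and lines at the means of the other libraries. Groups overlap for most genes, Lgr5 in Il4ra f/f runs from 11.1 to 25.1 CPM without the left-out library at 49.2 CPM, and Epcam varies from 195 to 1324 CPM.

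Axin2 (chr11:108920349-108950783, plus strand, GRCm38, ENSMUSG00000000142.15) encodes a scaffold of the complex that destroys beta-catenin and is a widely used readout of the Wnt signal. Its level was 84.3, 61.7 and 71.5 CPM in Hoil1+/+Il4ra f/f and 137.6, 56.7 and, left out, 75.8 CPM in Hoil1-/-Il4ra f/f. In Hoil1+/+Il4ra ΔIEC it was 40.7, 99.2 and 98.9 CPM, and in Hoil1-/-Il4ra ΔIEC 46.6, 51.3 and 29.7 CPM. The Hoil1-/-Il4ra ΔIEC libraries were all below every library of both f/f groups, but Hoil1+/+Il4ra ΔIEC replicate 1 lay among them. The share of all genes with this separation was not counted, so Axin2 is not set apart by it. The fitted log2 difference for Hoil1 was 0.69 (SE 0.44, adjusted p = 0.463) in Il4ra f/f and -1.11 (SE 0.40, 95% interval -2.00 to -0.22, unadjusted p = 0.0191, adjusted p = 0.603 by edgeR) in Il4ra ΔIEC. The difference between these effects, -1.80 (SE 0.60, 95% interval -3.11 to -0.48), had an unadjusted p of 0.0118 and an adjusted p of 0.163 by edgeR. DESeq2 gave -1.87 (SE 0.66) with an adjusted p of 0.0473, and the adjusted p over all alternatives ran from 0.0473 to 0.51, with the sign turned to 1.38 (SE 1.15) where Epcam counts were the library size. Without Hoil1-/-Il4ra f/f replicate 1, the library with the highest Axin2, the Hoil1 difference in Il4ra f/f was -0.10 and the difference of the effects -1.01.

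Rnf43 (chr11:87662722-87735539, plus strand, GRCm38, ENSMUSG00000034177.15) and Znrf3 (chr11:5276324-5444847, minus strand, GRCm38, ENSMUSG00000041961.14) encode related transmembrane ubiquitin ligases that remove Frizzled receptors from the cell surface and are held back by R-spondin. Rnf43 was counted at 62.2, 41.4 and 33.5 CPM in Hoil1+/+Il4ra f/f, at 40.7, 26.5 and, left out, 32.6 CPM in Hoil1-/-Il4ra f/f, at 12.6, 45.4 and 58.6 CPM in Hoil1+/+Il4ra ΔIEC, and at 26.4, 15.3 and 19.9 CPM in Hoil1-/-Il4ra ΔIEC. The Hoil1-/-Il4ra ΔIEC libraries were below every f/f library, as with Axin2, but only just. Their highest was 26.4 CPM, against 26.5 CPM in Hoil1-/-Il4ra f/f replicate 2. The share of all genes with this separation was not counted, and Hoil1+/+Il4ra ΔIEC replicate 1 was the lowest of all 12. The Hoil1 difference in Il4ra ΔIEC was -1.08 (SE 0.48, 95% interval -2.14 to -0.01, unadjusted p = 0.0475, adjusted p = 0.628 by edgeR) on the log2 scale, and -0.20 (SE 0.54) in Il4ra f/f. Znrf3 was low throughout, at 15.6, 9.40 and 15.1 CPM in Hoil1+/+Il4ra f/f, 6.86, 6.50 and, left out, 10.3 CPM in Hoil1-/-Il4ra f/f, 7.06, 9.65 and 9.88 CPM in Hoil1+/+Il4ra ΔIEC, and 5.12, 7.42 and 10.6 CPM in Hoil1-/-Il4ra ΔIEC. Znrf3 was therefore lower in both main Hoil1-/-Il4ra f/f libraries than in every Hoil1+/+Il4ra f/f library, but the left-out library fell inside the wild-type range, and the log2 difference was -0.73 (SE 0.53, 95% interval -1.89 to 0.44, adjusted p = 0.511 by edgeR).

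The letters before the start site of Axin2 and of a Tnfrsf19 transcript are shown because they differ in the core TCF motif, ATCAAAG or its reverse complement CTTTGAT, the sequence that beta-catenin's partners bind. The RefSeq promoter table (GRCm38.p6) held 8 start sites for 6 of the 9 genes, Olfm4, Axin2, Rnf43, Tnfrsf19, Ephb2 and Ephb3. Of these 8 windows of 250 bases before the start, 1 held the motif on either strand, against 3.21% of all 32851 windows in the table. It was the window of the inner Tnfrsf19 start (chr14:61037988-61038237, minus strand), where the motif begins 202 bases before the start, in a stretch that partly overlaps an exon of the long noncoding gene Gm41168 on the opposite strand. The Axin2 window (chr11:108920099-108920348, plus strand) lies directly before the annotated gene. The motif is in capitals.

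Axin2: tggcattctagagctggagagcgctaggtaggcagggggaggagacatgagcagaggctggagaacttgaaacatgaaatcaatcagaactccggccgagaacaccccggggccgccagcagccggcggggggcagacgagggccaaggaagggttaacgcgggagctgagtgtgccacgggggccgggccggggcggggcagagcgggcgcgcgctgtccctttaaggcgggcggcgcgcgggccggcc

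Tnfrsf19: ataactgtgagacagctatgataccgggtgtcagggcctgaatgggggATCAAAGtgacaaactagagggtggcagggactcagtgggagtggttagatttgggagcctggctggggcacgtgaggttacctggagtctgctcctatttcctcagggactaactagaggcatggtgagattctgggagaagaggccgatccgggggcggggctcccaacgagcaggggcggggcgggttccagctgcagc

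A match is a description of these letters, and a window without one says only that the motif is not written there. The gene counts do not separate the Tnfrsf19 starts.

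Ephb2 (chr4:136647539-136835988, minus strand, GRCm38, ENSMUSG00000028664.14) and Ephb3 (chr16:21204755-21223305, plus strand, GRCm38, ENSMUSG00000005958.14) encode receptor tyrosine kinases that are highest at the crypt base and bind B-class ephrins on differentiated cells. Ephb2 was measured at 80.2, 49.0 and 93.0 CPM in Hoil1+/+Il4ra f/f, at 91.5, 64.7 and, left out, 66.1 CPM in Hoil1-/-Il4ra f/f, at 48.9, 27.8 and 71.9 CPM in Hoil1+/+Il4ra ΔIEC, and at 49.9, 40.6 and 62.7 CPM in Hoil1-/-Il4ra ΔIEC. Ephb3 was measured at 59.8, 25.9 and 34.9 CPM in Hoil1+/+Il4ra f/f, at 27.5, 25.7 and, left out, 56.4 CPM in Hoil1-/-Il4ra f/f, at 6.78, 10.1 and 35.7 CPM in Hoil1+/+Il4ra ΔIEC, and at 21.3, 14.5 and 29.7 CPM in Hoil1-/-Il4ra ΔIEC. For both genes the ΔIEC libraries reached lower than any f/f library, and the ranges overlapped. The log2 difference between Il4ra ΔIEC and Il4ra f/f, averaged over the Hoil1 genotypes, was -0.59 for Ephb2 (SE 0.26, 95% interval -1.16 to -0.02, unadjusted p = 0.0424, adjusted p = 0.808 by edgeR). For Ephb3 it was -0.79 (SE 0.40, 95% interval -1.66 to 0.09, adjusted p = 0.812 by edgeR). The Hoil1 differences of both genes had intervals that included 0 in either Il4ra genotype.

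None of the 9 genes passed an adjusted p of 0.05 in any of the 5 comparisons of the main test, edgeR's quasi-likelihood test on 11 libraries. For Hoil1 with both Il4ra genotypes averaged, 0 of 9 genes were called against 0.0182% of the 16453 genes tested, with estimates from -0.75 for Lgr5 to 0.11 for Ephb2. For the Hoil1 effect in Il4ra f/f, 0 of 9 were called against 0.0365% of all genes, 4 estimates were above and 5 below 0, and their median of -0.20 was close to the median of -0.17 over all genes. For the Hoil1 effect in Il4ra ΔIEC, 0 of 9 were called against 0.00608%, 7 estimates were below 0, and the median was -0.41 beside 0.06 over all genes. For the Il4ra effect, 0 of 9 were called against 0%, 8 estimates were below 0, and the median was -0.32 beside 0.06. For the difference of the Hoil1 effects, 0 of 9 were called against 0%. Without adjustment, 0, 0, 2, 1 and 1 of the 9 genes in these comparisons, in the same order, were under 0.05. The shares of all genes were 5.28, 13.1, 7.66, 5.9 and 20.7%. DESeq2 called 1 of the 9, Axin2, in the last comparison, where it called 8.91% of all genes, and none in the others, and edgeR's likelihood ratio test, and its exact test in both Hoil1 comparisons within an Il4ra genotype, called none. With all 12 libraries, 7 of 9 estimates for Hoil1 in Il4ra f/f were above 0, with a median of 0.18.

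**Figure D3:**
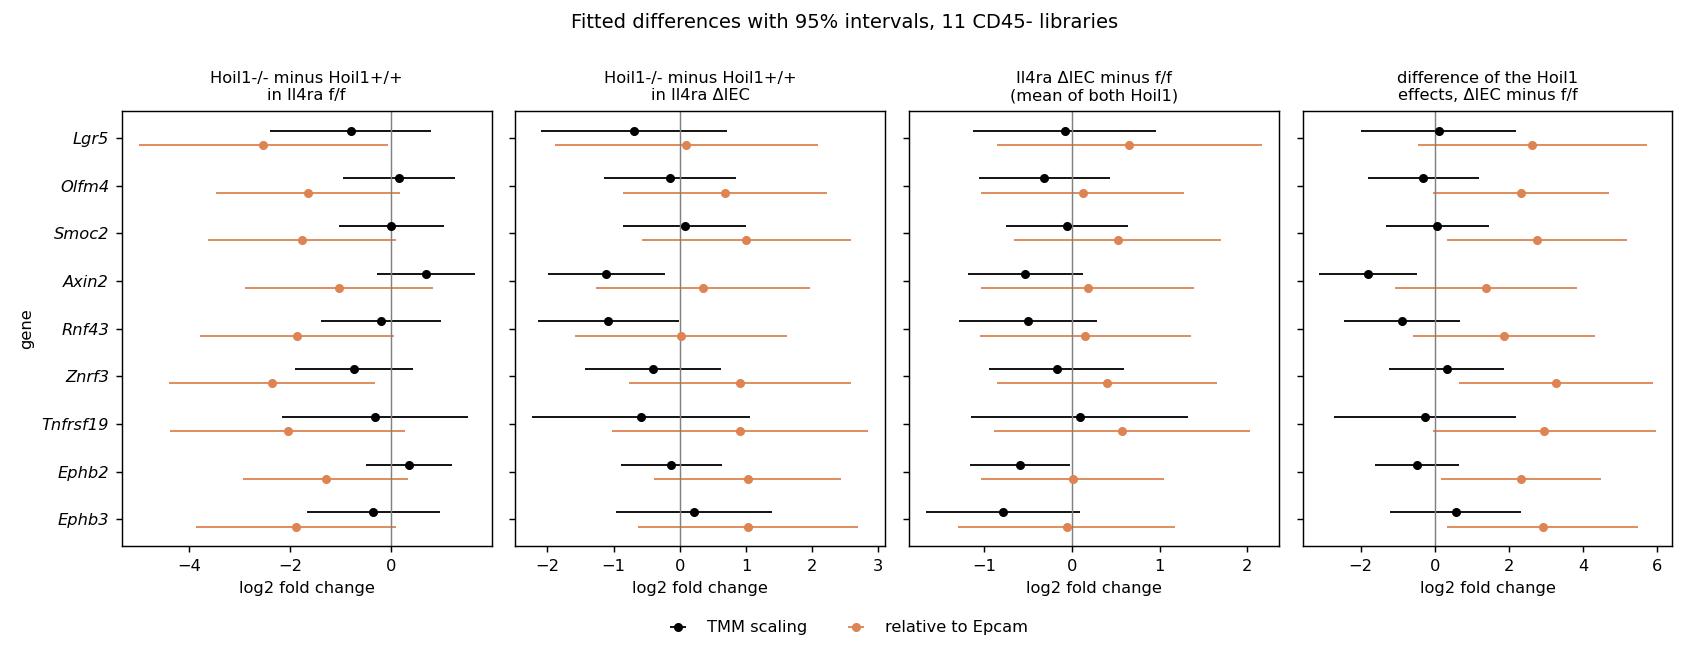
Fitted log2 fold changes with 95% intervals for 4 comparisons in the 11 CD45- libraries of the main test, with TMM scaling (black) and with Epcam counts as the library size (orange). With TMM scaling the intervals of Axin2 and Rnf43 for Hoil1 in Il4ra ΔIEC, Ephb2 for Il4ra and Axin2 for the difference of the effects exclude 0 before adjustment, and the orange estimates for Hoil1 lie left of 0 in Il4ra f/f and right of 0 in Il4ra ΔIEC.

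Scaling to Epcam asked how much of each transcript there was per epithelial cell adhesion transcript. Epcam itself stood at 788, 282 and 518 CPM in Hoil1+/+Il4ra f/f, at 1324, 1189 and, left out, 552 CPM in Hoil1-/-Il4ra f/f, at 1128, 891 and 555 CPM in Hoil1+/+Il4ra ΔIEC, and at 428, 195 and 679.8 CPM in Hoil1-/-Il4ra ΔIEC. The log2 difference in Epcam for Hoil1 was 1.50 (SE 0.60, unadjusted p = 0.0306, adjusted p = 0.363 by edgeR) in Il4ra f/f and -1.24 (SE 0.56, unadjusted p = 0.0477, adjusted p = 0.628 by edgeR) in Il4ra ΔIEC. These opposite estimates enter every ratio to Epcam. The enterocyte markers leaned the same way, with 8 of 8 estimates for Hoil1 above 0 in Il4ra f/f and 8 of 8 below 0 in Il4ra ΔIEC and none called, and their part in the ratios was not tested.

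Relative to Epcam, Lgr5 was 31.9, 79.3 and 44.6 counts per 1000 Epcam counts in Hoil1+/+Il4ra f/f, 8.62, 9.29 and, left out, 89.1 in Hoil1-/-Il4ra f/f, 3.33, 10.7 and 84.3 in Hoil1+/+Il4ra ΔIEC, and 32.4, 51.3 and 21.7 in Hoil1-/-Il4ra ΔIEC. Olfm4 was 1298, 4700 and 3762 counts per 1000 Epcam counts in Hoil1+/+Il4ra f/f, 1050.2, 1019.6 and, left out, 3547 in Hoil1-/-Il4ra f/f, 656, 885 and 3178 in Hoil1+/+Il4ra ΔIEC, and 2177, 2818 and 2603 in Hoil1-/-Il4ra ΔIEC. For both genes the left-out library and Hoil1+/+Il4ra ΔIEC replicate 3 were far above the other libraries of their groups. Their summed enterocyte markers, 1971 and 2022 CPM, were the lowest of their groups. In Hoil1-/-Il4ra ΔIEC the library highest in these markers, replicate 3 at 16415 CPM, had the lowest Lgr5 ratio but not the lowest Olfm4 ratio. The part of enterocyte content in these ratios was not tested. Axin2 was 107, 218 and 138 counts per 1000 Epcam counts in Hoil1+/+Il4ra f/f, 104, 47.6 and, left out, 137 in Hoil1-/-Il4ra f/f, 36.1, 111 and 178 in Hoil1+/+Il4ra ΔIEC, and 109, 263 and 43.7 in Hoil1-/-Il4ra ΔIEC. Over the 12 libraries the ratios to Epcam spanned from 6.66-fold for Ephb2 to 26.7-fold for Lgr5 and 41.3-fold for Tnfrsf19.

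In Il4ra f/f, all 9 ratios were lower in both main Hoil1-/- libraries than in every Hoil1+/+ library, but so were those of 61.8% of the 16453 genes tested. With the left-out library this held for 2 of 9, Rnf43 and Znrf3. The share of all genes was not counted for that set, so these 2 are not set apart from other genes. In CPM, 2 of 9 genes, Lgr5 and Znrf3, were lower without overlap in the main libraries of Il4ra f/f, against 27.4% of all genes. With the left-out library none was, against 14.7% of all genes. With Epcam counts as the library size in edgeR, the 9 estimates for Hoil1 in Il4ra f/f were all below 0, Axin2 included at -1.03 (SE 0.87) against 0.69 with TMM scaling, with a median of -1.87, beside -1.94 over all genes, and 0 of 9 were called against 0%. In Il4ra ΔIEC the 9 estimates were all above 0 with a median of 0.91, beside 1.42 over all genes, and 0 of 9 were called against 0%. For the averaged Hoil1 effect and for the Il4ra effect, 0 of 9 were called against 0% in each.

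For the difference of the Hoil1 effects on this scale, Znrf3 was called (log2 difference 3.27, SE 1.23, 95% interval 0.65 to 5.89, adjusted p = 0.0458 by edgeR), 1 of 9 genes against 43.8% of all genes. Its adjusted p over all alternatives, scaling included, ran from 0.0458 to 1, and with TMM scaling the difference was 0.32 (SE 0.70). The median difference was 2.63 for the 9 genes and 3.39 for all genes, and that of the 9 genes was the lower. With all 12 libraries 0 genes were called on this scale.

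**Figure D4:**
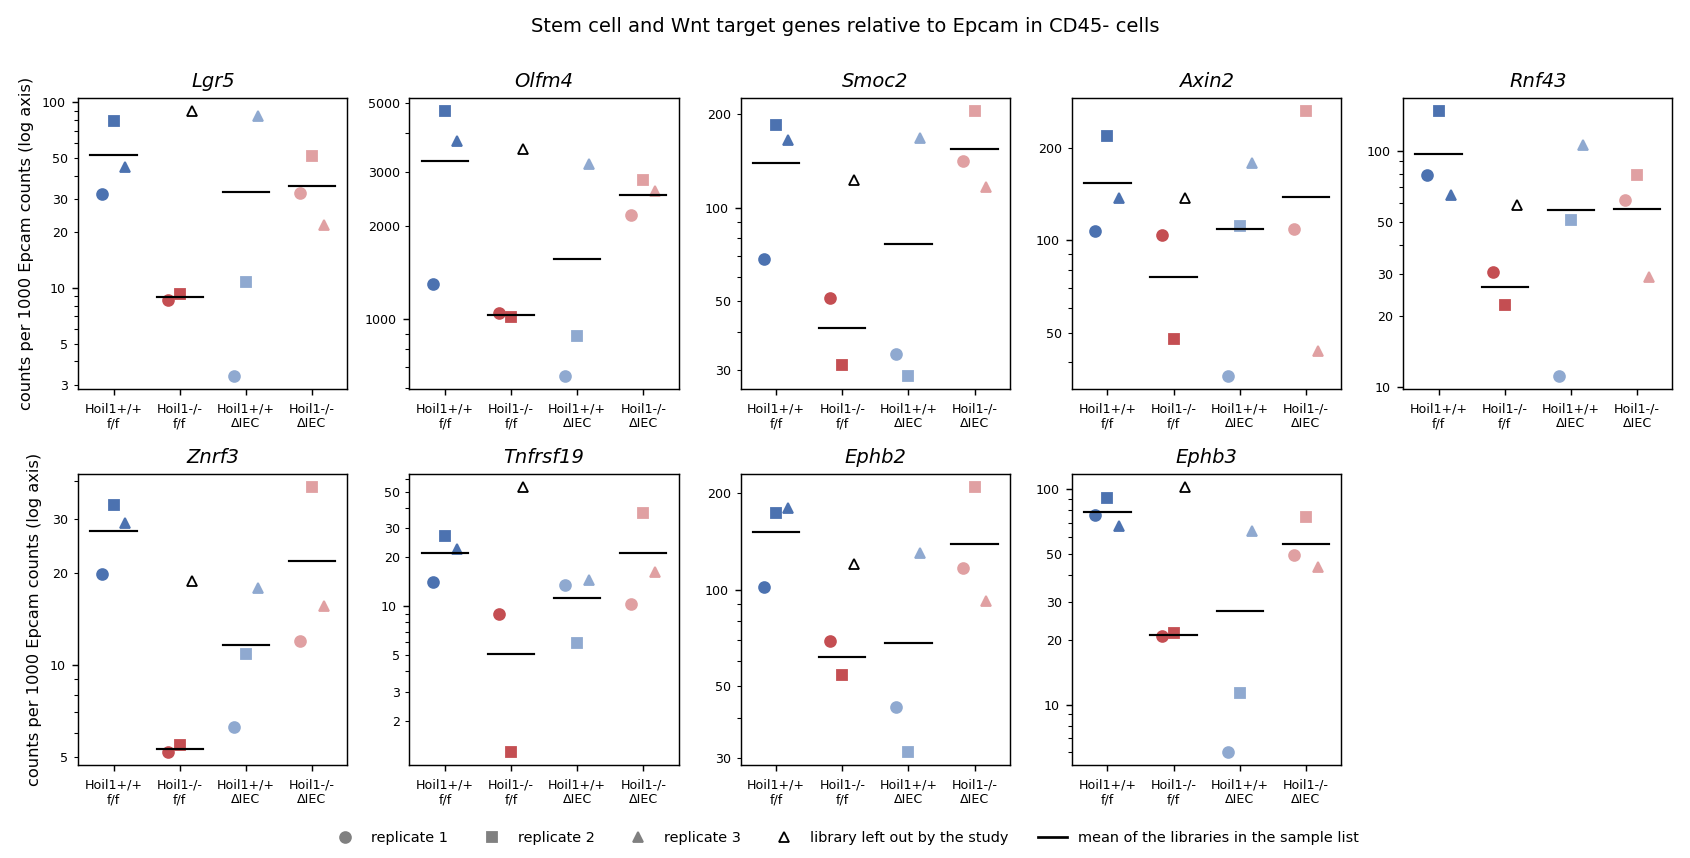
Counts of each gene per 1000 Epcam counts (log axis, a separate scale for each gene) in the 12 CD45- libraries by genotype, with point shapes for replicates, an open triangle for the library the study left out, and lines at the means of the other libraries. In Il4ra f/f the 2 Hoil1-/- libraries of the main set lie below the Hoil1+/+ libraries for all 9 genes, as for 61.8% of all genes tested. The open triangle does so for Rnf43 and Znrf3 alone, and the share of all genes was not counted for it.

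Across the 12 CD45- libraries the 9 genes tended to be high in the same libraries. Pearson's r of log2(CPM + 1) was above 0 for 35 of the 36 pairs of genes, with a median of 0.43. Pairs of other genes were not measured for comparison, so this is not shown to be particular to the 9 genes. These correlations describe 12 libraries that differ in depth and cell composition, and the part of these differences in r was not tested. Lgr5 and Ephb3 were the closest pair (r = 0.86), followed by Olfm4 and Smoc2 (r = 0.79), Axin2 and Rnf43 (r = 0.77), and Smoc2 and Ephb2 (r = 0.76). Axin2 followed the stem cell markers less closely, with r = 0.06 to Smoc2, 0.18 to Olfm4 and 0.36 to Lgr5. Rnf43 had r = 0.26 with Smoc2, 0.41 with Olfm4 and 0.66 with Lgr5. The highest r of Tnfrsf19 was 0.44, with Znrf3. Lgr5 had the largest spread, an SD of 0.97 on the log2 scale, and Znrf3 the smallest, 0.43, beside a median of 0.69 over the 15332 genes kept in 12 libraries.

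**Figure D5:**
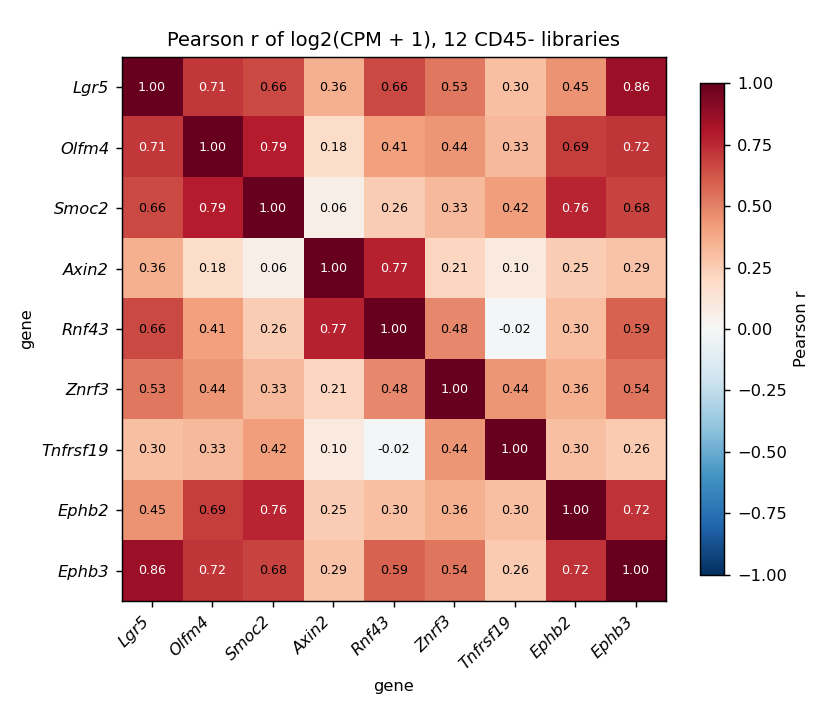
Pearson's r of log2(CPM + 1) between each pair of the 9 genes over the 12 CD45- libraries, from blue (-1) to red (1). The darkest cells off the diagonal are Lgr5 with Ephb3 (0.86), Olfm4 with Smoc2 (0.79) and Axin2 with Rnf43 (0.77), and the palest are Rnf43 with Tnfrsf19 (-0.02) and Axin2 with Smoc2 (0.06).

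The summed markers of other cell types moved with these genes to different degrees. With Epcam, r ran from -0.31 for Lgr5 to 0.27 for Ephb2, and with summed enterocyte markers from -0.47 for Lgr5 to 0.13 for Axin2. With the summed level of 8 proliferation genes r was highest for Smoc2 at 0.80 and Ephb2 at 0.75, and lowest for Axin2 at -0.09. With Mki67 alone, which is among these 8 genes, it was highest for Ephb2 at 0.71 and Axin2 at 0.62, so the place of Axin2 depended on the proliferation gene used. With the 6 enteroendocrine markers r was above 0 for all 9 genes, from 0.23 for Tnfrsf19 to 0.82 for Olfm4, and with the 7 Paneth cell markers, whose cells border the stem cells, from 0.12 for Tnfrsf19 to 0.61 for Rnf43. Immune markers had r below 0 for all 9 genes, from -0.63 for Lgr5 to -0.004 for Axin2. From Axin2 to Lgr5, r ran from -0.30 to 0.48 for endothelium, -0.47 to 0.32 for fibroblasts and -0.56 to 0.32 for glia. For smooth muscle it ran from -0.44 (Axin2) to 0.37 (Znrf3). Goblet cell markers gave -0.28 (Lgr5) to 0.32 (Ephb2), and tuft cell markers -0.37 (Tnfrsf19) to 0.48 (Ephb2).

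The genes of most similar pattern over the 12 libraries, among the 15332 kept, included Umps (r = 0.93) and Gart (r = 0.91) for Smoc2, which make pyrimidines and purines, and Ints5 and Cdca7l (both r = 0.90) for Lgr5. Asph (r = 0.93) and Gpld1 (r = 0.92) were nearest to Ephb3, and Timmdc1 (r = 0.93) and Rab32 (r = 0.87) to Tnfrsf19. Jaml and Slc25a39 (both r = 0.90) were nearest to Olfm4, and Copb1 and A430005L14Rik (both r = 0.90) to Ephb2. Fgd2 and Oaz1-ps (both r = 0.88) were nearest to Axin2, and Celf3 (r = 0.88) and Fam13a (r = 0.87) to Rnf43. For Znrf3 the nearest gene was a Wnt ligand, Wnt3 (r = 0.85), followed by Rab3c (r = 0.84). All these genes are the highest by r in a search of the 15332 over only 12 libraries. How high r runs by chance in such a search was not tested.

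The rest of the pathway was followed in 8 lists of 94 genes, of which 89 were tested. None was called by edgeR's quasi-likelihood test in the 5 comparisons, while 5, 12, 6, 4 and 17 of 89 were under an unadjusted p of 0.05 for the averaged Hoil1 effect, Hoil1 in Il4ra f/f, Hoil1 in Il4ra ΔIEC, Il4ra and the difference of the Hoil1 effects. These are 5.62, 13.5, 6.74, 4.49 and 19.1% of the listed genes, close to the 5.28, 13.1, 7.66, 5.90 and 20.7% of all genes. DESeq2 called 1, 6, 1, 0 and 6 of the 89, beside 1.02%, 3.73%, 0.839%, 0.966% and 8.91% of all genes. The likelihood ratio test called 1, 2, 0, 0 and 5 of them, beside 0.821%, 2.13%, 0.377%, 0.869% and 7.43% of all genes. EdgeR's exact test called 2 in Il4ra f/f, beside 1.23% of all genes, and 0 in Il4ra ΔIEC, beside 0.243%.

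Nkd1, a cytoplasmic inhibitor of Dishevelled that is itself a Wnt target, was the gene called by DESeq2, the likelihood ratio test and the exact test for Hoil1 in Il4ra f/f together with Jun, an AP-1 transcription factor. Nkd1 was 44.5, 57.0 and 102 CPM in Hoil1+/+Il4ra f/f and 5.13, 15.4 and, left out, 24.7 CPM in Hoil1-/-Il4ra f/f, and these groups did not overlap, like those of 27.4% of all genes in this direction, or of 14.7% with the left-out library counted in. In Hoil1+/+Il4ra ΔIEC it was 12.9, 7.42 and 21.2 CPM and in Hoil1-/-Il4ra ΔIEC 29.5, 63.4 and 35.3 CPM, without overlap in the other direction, like 7.33% of all genes. The log2 difference for Hoil1 was -2.41 (SE 0.58, unadjusted p = 0.00153, adjusted p = 0.205 by edgeR) in Il4ra f/f and 1.44 (SE 0.48, unadjusted p = 0.0118, adjusted p = 0.603 by edgeR) in Il4ra ΔIEC, and their difference was 3.86 (SE 0.75, unadjusted p = 0.000315, adjusted p = 0.106 by edgeR). Epcam and the enterocyte markers were opposite to Nkd1 in both comparisons, and their part in these values was not tested.

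Among 14 other stem cell genes the median log2 difference for Hoil1 in Il4ra f/f was -0.09, and the genes of largest estimate were Igfbp4, an insulin-like growth factor binding protein (-1.71, SE 0.80), and Cdk6, a cell cycle kinase (-1.04, SE 0.45). In the left-out library Igfbp4 was at 506 CPM, inside the range of 412 to 1298 CPM in Hoil1+/+Il4ra f/f, and Cdk6 at 32.1 CPM, below the lowest of those libraries at 42.2 CPM. For Il4ra these were Msi1, an RNA-binding protein (-0.62, SE 0.37), and Hopx, a marker of reserve stem cells (-0.62, SE 0.41). Among 16 of 18 other Wnt targets the median for Hoil1 in Il4ra f/f was -0.34, or -0.09 with all 12 libraries. Besides Nkd1, the largest estimates among these targets belonged to Lef1, a TCF family factor, at 0 to 1.60 CPM, and for Il4ra also to Wif1, a secreted Wnt inhibitor, at 0 to 2.81 CPM in the 11 libraries. Of 17 genes of the destruction complex and TCF factors the median was -0.29 in Il4ra f/f, or -0.11 with all 12 libraries. Tcf7l1, a repressing TCF factor, stood at -1.99 (SE 0.78), but at 70.8 CPM in the left-out library against 27.1 to 69.8 CPM in Hoil1+/+Il4ra f/f. Bcl9, a beta-catenin co-factor, stood at -0.56 (SE 0.24) for Il4ra.

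Wnt ligands and R-spondins come mostly from stromal and Paneth cells. The 9 ligands ranged up to 46.5 CPM in the 11 libraries of the main test, but 5 of them had no count in any of these libraries of at least 1 group, so their fold changes are not given, and the median log2 difference of the 9 for Hoil1 in Il4ra f/f was -3.68 as fitted and -1.53 with these genes at the bound set by 3 counts. With all 12 libraries 7 ligands were tested and the median was -0.47. Wnt11 was 2.15, 2.00 and 5.53 CPM in Hoil1+/+Il4ra f/f, without a count in Hoil1-/-Il4ra f/f replicates 1 and 2 and 7.12 CPM in the left-out library. Wnt9b, Wnt6 and Wnt2 were at 0 to 2.54, 0 to 1.10 and 0 to 4.04 CPM in the 11 libraries, and Wnt2 was at 4.57 CPM in the left-out library. Of 4 R-spondins 3 were tested, with a median of -0.35 in Il4ra f/f, or -0.86 with all 12 libraries, and Rspo3 was at 0 to 6.66, Rspo2 at 0 to 6.32 and Rspo1 at 0 to 3.18 CPM in the 11 libraries. In the left-out library Rspo1 reached 8.06 CPM and Rspo3 1.75 CPM, and Rspo2 had no count. Of 10 secreted inhibitors 7 were tested, with a median of -1.18 in Il4ra f/f, or -0.40 with all 12 libraries, and Sfrp4 and Frzb, both stromal Frizzled-related proteins, were at 0 to 8.79 and 0 to 3.36 CPM, with no count in any of the 3 Hoil1-/-Il4ra f/f libraries.

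The 17 Wnt and R-spondin receptors had a median log2 difference of -0.47 for Hoil1 in Il4ra f/f and 0.32 in Il4ra ΔIEC. Ror2, a receptor for Wnt5a, was 8.03, 16.04 and 18.7 CPM in Hoil1+/+Il4ra f/f and 0, 2.32 and, left out, 21.1 CPM in Hoil1-/-Il4ra f/f. In Hoil1+/+Il4ra ΔIEC it was 3.57, 4.58 and 9.01 CPM, and in Hoil1-/-Il4ra ΔIEC 13.7, 10.4 and 11.1 CPM. The ΔIEC groups did not overlap, like 7.33% of all genes in this direction. DESeq2 called Ror2 for Hoil1 in Il4ra f/f, beside 3.73% of all genes. For the difference of the Hoil1 effects DESeq2 and the likelihood ratio test called it, beside 8.91% and 7.43%. Lgr6, a relative of Lgr5, reached at most 1.47 CPM, and Fzd9, a Frizzled receptor, at most 8.32 CPM. Lgr6 had no count in any Hoil1-/- library, nor in Hoil1+/+Il4ra ΔIEC replicate 2. Of the listed genes it was the 1 called by the likelihood ratio test for the averaged Hoil1 effect, beside 0.821% of all genes. The 13 other Eph receptors and ephrins had a median of -0.50 in Il4ra f/f, or -0.19 with all 12 libraries, with Efna2, an A-class ephrin, at 0 to 6.31 CPM and Epha7, an A-class Eph receptor, at 0 to 3.56 CPM as the genes of largest estimate. In each of these lists the medians are to be read beside the -0.17 and 0.06 over all genes in the same comparisons, and those with all 12 libraries in Il4ra f/f beside -0.07.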

How the data were processed

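The deposited file holds raw counts per gene, which were not normalized. To make it, the authors used cutadapt for trimming, STAR for alignment to mm10 (GRCm38) and featureCounts for counting on genes, whose strand setting is not given in the sources used here. Library preparation used poly-A selection. Of 39056 gene IDs, 38872 matched GENCODE M21 without the version and took their symbols and exon lengths from it.

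CPM were counts over the library total, ratios were counts per 1000 Epcam counts, and levels between genes were compared per kb of merged exons. Overlapping genes cover 5.17% of the exon bases of Olfm4 and 3.80% of those of Axin2. Tests were edgeR 4.0.16 quasi-likelihood fits in R 4.3.3 across all genes kept by its filter (minimum count 10, minimum total 15), with TMM scaling, a mean per genotype, two-sided contrasts, Benjamini-Hochberg adjustment and a threshold of 0.05. The 11 CD45- libraries of the study's sample list entered the main fit. The intervals are for differences of group means. Their width rests on the spread between separate mice, estimated over the 4 genotypes together. The code was tested on simulated counts with known changes.

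Alternatives were all 12 libraries, RLE size factors, total counts, Epcam counts or the summed counts of 10 epithelium markers as library size, no filter, DESeq2 1.42.0, the likelihood ratio test, edgeR's exact test and leaving out each library. Both epithelial scalings with all 12 libraries were added after seeing the data. The genes named are the 9 genes, Epcam and the check genes, the 2 genes of highest r with each, and in each list the 2 largest estimates for Hoil1 in Il4ra f/f and for Il4ra. Nkd1's comparisons outside that rule were described after its values were seen, as were Jun and those of Ror2 and Lgr6. The genes and lists were chosen with earlier results of these data known. Lgr5, Smoc2 and Znrf3 have no promoter shown.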

Additional observations from a re-analysis of the deposited data

Results flagged for a closer look

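In Hoil1-/-Il4ra f/f replicate 3, which entered no main test, 3 of the 9 genes were above all 6 Hoil1+/+ libraries. The share of all genes above all 6 in this library was not counted, and for Lgr5 and Olfm4 the margin was small. Lgr5 was at 49.2 CPM against a highest wild-type level of 46.8 CPM, Olfm4 at 1957 CPM against 1950.2 CPM, and Tnfrsf19 at 29.3 CPM against 15.1 CPM. The same library held 7444595 counts in all, no Rbck1 count, which allows up to 0.403 CPM, and 1971 CPM of summed enterocyte markers. The part of these in the 3 levels was not tested.

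Relative to Epcam, the Hoil1 effect on Znrf3 differed between Il4ra ΔIEC and Il4ra f/f by 3.27 on the log2 scale (adjusted p = 0.0458 by edgeR), and 7202 of 16453 genes passed on that scale.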

How the results depend on the processing

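Of 963 estimates for the 9 genes under the alternatives, 172 changed sign. Among these were 26 of 45 with Epcam counts and 25 of 45 with epithelium marker counts as library size. Of the 963, 952 kept their side of the threshold and did not turn beyond their standard errors, 9 turned and 2 newly passed. None of the 9 genes was called in the main test, so keeping the side of the threshold meant only staying uncalled. With Epcam counts as the library size Axin2 turned to -1.03 for Hoil1 in Il4ra f/f and to 1.38 for the difference of the Hoil1 effects, and Rnf43 to 1.88 for that difference, where 7202 genes and 1 of the 9 were called and 0 genes in each Hoil1 comparison. With epithelium marker counts these 3 values were -1.13, 1.51 and 1.95, and 0 genes were called for Hoil1. In 2 alternatives chosen after seeing the data, both with all 12 libraries, Rnf43 was 1.39 by Epcam and 1.27 by epithelium markers, and the averaged Hoil1 effect had 1 and 0 genes, with 0 for Hoil1 in either Il4ra genotype. Lgr5 for Hoil1 in Il4ra ΔIEC ran from -1.15 to 0.62 when each library was left out, the latter without Hoil1+/+Il4ra ΔIEC replicate 3. With all 12 libraries and TMM 0 genes were called for Hoil1. RLE factors gave 1 gene for the averaged Hoil1 effect, and no filter 11 for Hoil1 in Il4ra f/f and 1 for the difference. For the averaged Hoil1 effect, Hoil1 in Il4ra f/f, Hoil1 in Il4ra ΔIEC, Il4ra and the difference, the main test called 3, 6, 1, 0 and 0 genes (868, 2161, 1261, 971 and 3409 at an unadjusted p under 0.05), DESeq2 168, 613, 138, 159 and 1466, with 1 of the 9 in the last, and the likelihood ratio test 135, 350, 62, 143 and 1223. EdgeR's exact test called 203 and 40 genes for Hoil1 in Il4ra f/f and ΔIEC. Leaving out each library gave 1 to 173, 0 to 474, 0 to 2, 0 to 220 and 0 to 1199 genes in the same order, and 0 of the 9. The highest of these counts came without Hoil1-/-Il4ra f/f replicate 2 for the averaged Hoil1 effect, Hoil1 in Il4ra f/f and Il4ra, without Hoil1+/+Il4ra f/f replicate 2 for Hoil1 in Il4ra ΔIEC, and without Hoil1+/+Il4ra ΔIEC replicate 3 for the difference. The cause was not tested. Total counts as library size moved the median of all genes to -0.45 for Hoil1 in Il4ra f/f and to 0.76 for the difference. No paired analysis was possible because the labels do not tie replicate numbers of different genotypes to a shared litter or day. With 2 or 3 mice per genotype, differences within the intervals given were not resolved.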
